A study of Mus musculus with 6 samples.

Results

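Synaptotagmins are membrane and vesicle proteins that carry a pair of C2 domains, folds that in many family members bind calcium and then phospholipids. In neurons the calcium-binding members trigger or prepare the fusion of vesicles with the plasma membrane, while others in the family lack a working calcium site and act in trafficking and membrane retrieval. In forebrain, including the hippocampus, Syt1 is the main sensor for fast transmitter release, and Syt7 is a slower sensor with higher calcium affinity that supports facilitation and asynchronous release.

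The 10 genes described here are Syt1, Syt2, Syt3, Syt4, Syt5, Syt7, Syt9, Syt11, Syt12 and Syt17. They were picked by gene name among 25785 names in the authors' deposited expression table, and for each gene the transcript with the highest mean over the 6 libraries was kept. All 10 were among the 15717 genes with enough signal to be tested. The choice of genes was made with earlier results of these data known.

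The tissue was whole hippocampus at 30 days after birth, from a strain written C57B1/6J in the labels. There were 3 libraries of PTCHD1 mutant mice and 3 libraries of wild type mice of the same strain and age. Ptchd1 encodes a patched-domain membrane protein, and the gene is linked to intellectual disability and autism in humans. The mutant allele, the sex of the mice, whether all cells carried the mutation, and whether each library was 1 mouse are not stated in the labels, so the p-values cover library-to-library spread, which may be technical. The comparison asks which transcripts differ in hippocampus when Ptchd1 is mutated.

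The deposited values were taken as base coverage divided by a library size factor. They were divided here by a read length of 42 bases and are called normalized read equivalents. This reading was inferred from the spacing of the values, and no source states it. Before that size factor was applied, the libraries held between 12450000 and 23750000 read equivalents over 1 transcript per gene. Ptchd1 itself had 181.0, 150.0 and 130.0 normalized read equivalents in mutant libraries 1 to 3, against 323.2, 389.0 and 410.6 in wild type libraries 1 to 3. The mutants thus kept 41.0% of the wild type level, a log2 change of -1.28 ± 0.14 (SE; limma with Benjamini-Hochberg adjustment, adjusted p = 0.0342). Ptchd1 was the only gene to pass. It did not pass with quantile normalization or without mutant library 2, wild type library 1 or wild type library 3. The authors' deposited p-value for Ptchd1, adjusted here over the genes tested, was 5.7e-15. The labels do not locate the mutated stretch, and whether the remaining signal lies within it was not tested. Markers of hippocampal neurons and glia were present in every library, and none of the marker genes checked was at 0 in all libraries. Choroid plexus markers summed to 1200 to 2841 in mutant libraries and to 831 to 54678 in wild type libraries, so wild type libraries 1 and 3 stood apart in tissue content. Across genes, deviation from the mean of the libraries followed GC content most in mutant library 1 (Spearman's rho = 0.43) and, in the other direction, in wild type library 2 (rho = -0.48), over the 98.2% of tested genes with a GC value. These are descriptions across genes, which are not independent replicates.

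Most synaptotagmin transcripts had slightly higher means in mutant hippocampus, led by Syt7 and Syt1 in their p-values, and no change passed adjustment over all genes tested. Of the 10 genes, 8 had a positive log2 change, as did 46.8% of all genes tested. Limma called 0 of the 10 higher and 0 lower at an adjusted p under 0.05, beside 0% and 0.00636% of all genes tested. At an unadjusted p under 0.05, 4 of the 10 were higher, namely Syt1, Syt3, Syt7 and Syt11, beside 9.01% of all genes tested, and 0 were lower, beside 9.7%. The same 4 genes had all mutant libraries above all wild type libraries, beside 12.3% of all genes tested, and 0 had all mutant libraries below, beside 12%. The authors' deposited p-values, adjusted here over the same genes, put 3 of the 10 past 0.05 as higher (Syt1, Syt7 and Syt11), beside 4.57% of all genes tested, and 0 as lower, beside 3.23%. The median log2 change of the 10 genes was 0.17, against -0.02 over all genes tested. After correction for GC content and transcript length these medians were 0.16 and 0.01. Leaving out wild type library 3 lowered the count at an unadjusted p under 0.05 to 2 of 10, and leaving out wild type library 1 to 3 of 10. Correction for GC content and length also gave 3 of 10, as Syt3 then had an unadjusted limma p of 0.356. The count was 5 of 10 with library quality weights, where Syt2 joined (limma unadjusted p = 0.0298), a gene carried by mutant library 2 as given below. By the authors' deposited p-values it was also 5 of 10, where Syt5 joined instead (authors' unadjusted p = 0.0257). The shares of 9.01% and 9.7% belong to the main fit, and shares over all genes were not taken under these alternatives. With quality weights, 462 of all genes tested were higher at an adjusted limma p under 0.05, against 0 in the main fit.

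**Figure D1:**
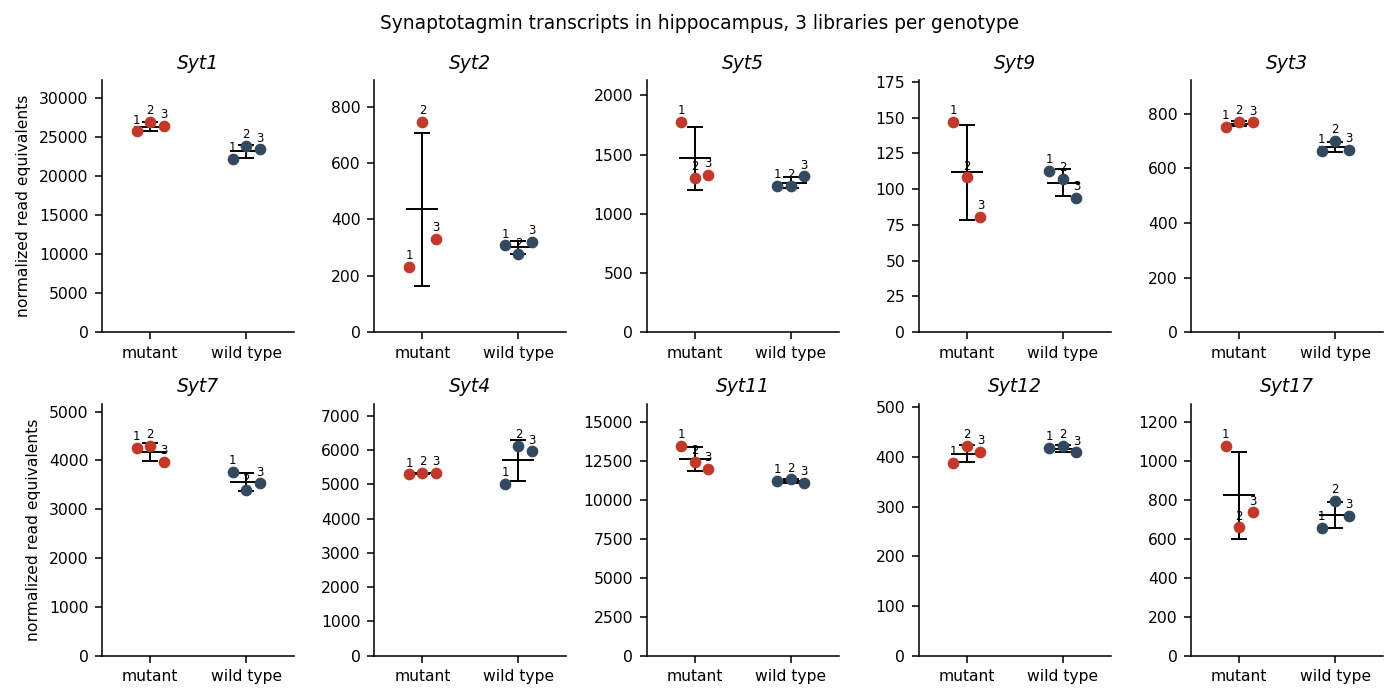
Normalized read equivalents (vertical axis, from 0) of the 10 synaptotagmins in each mutant (red, left) and wild type (grey, right) library, numbered 1 to 3, with the mean and SD as bars. Syt1, Syt3, Syt7 and Syt11 have all mutant points above all wild type points, and Syt2 has 1 mutant library far above the rest at 744.8.

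Syt1 was the most abundant of the 10 genes per length of transcript. It lies on chromosome 10 at 108497650 to 109010980 (GRCm38). It had 25764.8, 26936.5 and 26456.2 normalized read equivalents in the mutant libraries, against 22265.0, 23881.7 and 23464.7 in the wild type libraries. Every mutant library was above every wild type library, and each group was tight. The mutant level was 1.14 times the wild type level, a log2 change of 0.19 ± 0.06 (SE) with a 95% interval of 0.05 to 0.32. Limma gave an unadjusted p of 0.0127 and an adjusted p of 0.161, so the difference did not pass adjustment over all genes. The authors' deposited p-value, adjusted here over the same genes, was 0.0201.

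The authors' deposited tables place Syt1 among higher genes with a motif or bound site of NF-Y, a factor that recognises CCAAT boxes and 1 of 14 motif terms of the authors' deposited table that hold Syt1. In the authors' deposited motif table, NF-Y had a fold enrichment of 1.58 and a corrected p of 0.00849 over 88 genes, Syt1 among them. In the authors' deposited binding table, NFYA in neurons had a fold of 1.34 and a corrected p of 3.56e-09 over 319 genes, again with Syt1. In neural progenitor cells the authors' deposited table gives NFYA a fold of 1.14 and a corrected p of 0.107, also with Syt1. Neither table lists Syt7 or Syt11 for this factor. The RefSeq window of 250 bases before and 50 bases after the Syt1 start site (GRCm38.p6, minus strand, chr10:109010926-109011225) is printed because it bears on those entries. Capitals mark CCAAT, its reverse complement ATTGG, and the GC box GGGCGG.

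Syt1 promoter: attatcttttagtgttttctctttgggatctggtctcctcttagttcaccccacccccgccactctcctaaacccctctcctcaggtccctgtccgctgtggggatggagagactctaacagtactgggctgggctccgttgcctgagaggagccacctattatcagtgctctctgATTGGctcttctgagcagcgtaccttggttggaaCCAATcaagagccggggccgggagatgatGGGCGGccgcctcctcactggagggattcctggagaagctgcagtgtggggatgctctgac

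This window holds 2 CCAAT boxes, 1 on each strand, and 1 GC box. RefSeq gives Syt1 a second window, at chr10:109009062-109009361, which holds 0 CCAAT boxes and 0 GC boxes and is not printed. None of the matches overlap. Searched on both strands, 37.4% of 32851 RefSeq promoter windows of this length hold at least 1 CCAAT and 35.7% at least 1 GGGCGG, so neither word is rare. The words TGACG and TATAAA, in 20.8% and 13.6% of windows, were searched the same way and found in neither Syt1 window. A match is a description of the sequence and no evidence of binding in these mice. The RefSeq promoter table had windows for 5 of the 10 genes (Syt1, Syt2, Syt3, Syt9 and Syt11).

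Syt2, the fast sensor of many brainstem, spinal and inhibitory terminals, is closely related to Syt1. It had 231.2, 744.8 and 330.2 normalized read equivalents in the mutant libraries, against 308.1, 276.1 and 321.3 in the wild type libraries. Mutant library 2 stood at 2.26 times the next highest library, while mutant library 1 was the lowest of the 6, so the groups overlapped. The log2 change was 0.35 ± 0.32 (SE; limma adjusted p = 0.58), and without mutant library 2 it was -0.12. Mutant library 2 also held the most RNA of thalamus markers. Their sum was 6135 in mutant library 2, within a mutant range of 3940 to 6135, against 4008 to 4345 in the wild type libraries, and 4 of the 7 markers were highest in mutant library 2. Tcf7l2, a transcription factor of thalamic neurons, had 414 normalized read equivalents in mutant library 2 and 49 to 69 in the other 5 libraries. Slc17a6, the vesicular glutamate transporter of thalamus and other subcortical regions, had 1827 in mutant library 2 and 585 to 917 in the others. Not all markers of the list went this way. Calb2 was lowest in mutant library 2, at 453 against 469 to 647 in the others. Prkcd was highest in wild type library 1, at 515 against 355 in mutant library 2. Lef1 was highest in mutant library 1, at 119 against 105 in mutant library 2. Fast-spiking interneuron markers summed to 8546 to 9246 in mutant libraries and 8031 to 8976 in wild type libraries, and 4 of the 7 were highest in mutant library 2. The part of either in the Syt2 value was not tested. In bulk tissue, fewer cells of a type and less RNA per cell cannot be told apart.

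Syt9, a related sensor able to drive fast release in mouse neurons, was the lowest of the 10 genes. It had 146.8, 108.2 and 80.7 normalized read equivalents in the mutant libraries, against 112.7, 107.0 and 94.2 in the wild type libraries. The mutant libraries spanned the whole wild type range, with mutant library 1 highest and mutant library 3 lowest. The log2 change was 0.06 ± 0.20 (SE; limma adjusted p = 0.901), with a 95% interval of -0.39 to 0.50 that holds changes of either sign.

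Syt5 is a further calcium-binding member. It had 1772.7, 1301.3 and 1328.8 normalized read equivalents in the mutant libraries, against 1236.1, 1236.8 and 1315.0 in the wild type libraries. Mutant library 1 was 1.33 times the next highest library, and mutant library 2 lay below wild type library 3. The log2 change was 0.20 ± 0.11 (SE; limma adjusted p = 0.332), and leaving out 1 library at a time gave 0.06 to 0.28, the lowest without mutant library 1.

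Among the sensors with higher calcium affinity, Syt7 gave the smallest p of the 10 genes. It lies on chromosome 19 at 10388802 to 10453181 (GRCm38). Its highest listed transcript, NM_173068, had 4254.7, 4303.1 and 3969.9 normalized read equivalents in the mutant libraries, against 3759.7, 3387.0 and 3531.5 in the wild type libraries. All mutant libraries were above all wild type libraries, and the gap between mutant library 3 and wild type library 1 was small. The mutant level was 1.17 times the wild type level, a log2 change of 0.23 ± 0.07 (SE) with a 95% interval of 0.09 to 0.37. Limma gave an unadjusted p of 0.00473 and an adjusted p of 0.131. With library quality weights in the same test the adjusted p was 0.0396, while leaving out 1 library at a time gave adjusted p-values of 0.0962 to 0.375, and the authors' deposited p-value, adjusted here over the same genes, was 0.00769.

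Syt7 transcripts differ in the linker between the transmembrane segment and the C2 domains, where alternative exons lengthen the protein. The table lists 3 RefSeq forms. NM_018801 lacks the linker exons described here, NM_173067 adds a single exon of 132 bases, and NM_173068 adds a pair of exons with 492 bases in all. Each of these lengths is a multiple of 3. The single exon and the shorter exon of the pair are printed because the values that follow are coverage of these exons. They come from the GRCm38 genome, plus strand, at chr19:10421757-10421888 and chr19:10430338-10430460, in lower case throughout since no stretch within them is singled out.

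Syt7 single linker exon: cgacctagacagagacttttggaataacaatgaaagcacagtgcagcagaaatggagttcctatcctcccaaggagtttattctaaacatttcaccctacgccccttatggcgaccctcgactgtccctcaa
Syt7 linker exon of the pair: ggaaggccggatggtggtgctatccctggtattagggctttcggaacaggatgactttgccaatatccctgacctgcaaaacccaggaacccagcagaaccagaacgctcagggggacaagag

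Because the 3 forms share their other 9 coding exons in the GENCODE models, the coverage of the added exons was taken as the difference between table rows, on the assumption that the deposited rows differ nowhere else. The single exon had 83.6, 86.8 and 74.4 normalized read equivalents in the mutant libraries, against 65.3, 62.3 and 62.7 in the wild type libraries. All mutant libraries were above all wild type libraries, at 1.29 times the wild type mean. As a share of the read equivalents of NM_018801, the single exon gave 2.08%, 2.12% and 1.96% in the mutant libraries. In the wild type libraries it gave 1.85%, 1.94% and 1.87%. These shares are not corrected for length, so they are not the fraction of transcripts that hold the exon. The share too was higher in every mutant library, by a narrow gap. Both comparisons gave an exact two-sided permutation p of 0.1 (n = 3 each), the smallest that 3 against 3 libraries allow, and 0.25 after Benjamini-Hochberg adjustment over the 5 exon comparisons made.

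In the pair of exons the groups overlapped. The pair had 245.2, 213.4 and 178.6 normalized read equivalents in the mutant libraries, against 225.2, 172.6 and 188.0 in the wild type libraries (exact two-sided permutation p = 0.6). Its share of the read equivalents of NM_018801, again not corrected for length, averaged 5.35% ± 0.71 in mutants and 5.79% ± 0.52 in wild type (SD, n = 3 each; exact two-sided permutation p = 0.4). Coverage per base of the single exon over the pair averaged 1.45 ± 0.15 in mutants and 1.22 ± 0.13 in wild type (SD, n = 3 each; exact two-sided permutation p = 0.2), so a difference between the exons was not shown. The single exon rests on 52.6 to 90.3 read equivalents per library before normalization, which limits its precision.

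**Figure D2:**
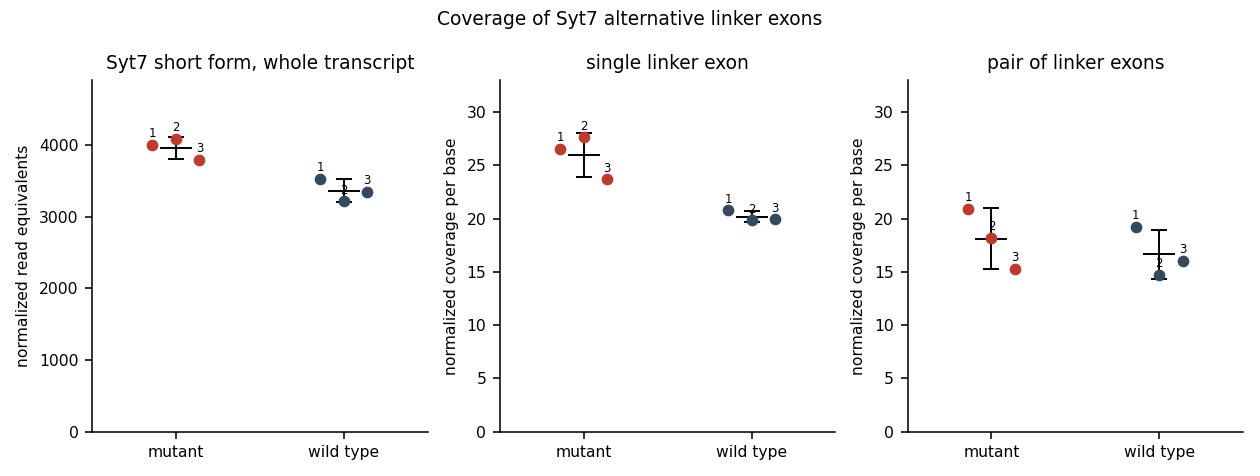
Left, normalized read equivalents of the Syt7 transcript without added linker exons, and middle and right, normalized coverage per base of the single linker exon and of the pair, in mutant (red, left) and wild type (grey, right) libraries 1 to 3, with mean and SD as bars. The single exon lies between 23.7 and 27.6 in mutants and between 19.8 and 20.8 in wild type, and the pair overlaps.

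Syt3, a high-affinity member that in rodent hippocampal neurons acts on AMPA receptor internalisation, was tightly grouped. It lies on chromosome 7 at 44382773 to 44400030 (GRCm38) and had 752.7, 768.4 and 768.1 normalized read equivalents in the mutant libraries, against 665.0, 699.8 and 667.6 in the wild type libraries. The groups did not overlap and the mutant level was 1.13 times the wild type level, a log2 change of 0.17 ± 0.07 (SE; limma unadjusted p = 0.0334, adjusted p = 0.229). Syt3 is the most GC-rich of the 10 transcripts, at 60.7%. Its log2 change was 0.08 after correction for GC content and length (limma unadjusted p = 0.356). The authors' deposited p-value, adjusted here over the same genes, was 0.198.

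Of the members without a full calcium site, Syt11 was the most abundant per length and the only one with separated groups. Syt11, which restrains endocytosis and lies in a region linked to Parkinson's disease in humans, is on chromosome 3 at 88744699 to 88775159 (GRCm38). It had 13463.6, 12443.7 and 11954.6 normalized read equivalents in the mutant libraries, against 11222.4, 11306.3 and 11056.2 in the wild type libraries. The wild type libraries lay close together, and the mutant libraries spread upwards with mutant library 1 highest. The mutant level was 1.13 times the wild type level, a log2 change of 0.17 ± 0.06 (SE; limma unadjusted p = 0.0212, adjusted p = 0.194). The authors' deposited p-value, adjusted here over the same genes, was 0.0457, and leaving out 1 library at a time gave log2 changes of 0.12 to 0.21.

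Syt4, an activity-induced member found on dense-core vesicles, went the other way in its mean. It had 5297.3, 5334.0 and 5337.3 normalized read equivalents in the mutant libraries, against 5010.7, 6135.2 and 5965.2 in the wild type libraries. The mutant libraries were almost equal and lay inside the wild type range. The log2 change was -0.09 ± 0.08 (SE; limma adjusted p = 0.541), and it was 0.044 after correction for GC content and length, Syt4 being the most AT-rich of the 10 transcripts with 40.7% GC. Leaving out wild type library 1 gave -0.18 and leaving out wild type library 2 gave -0.039.

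Syt12, which is needed for a presynaptic form of plasticity at mouse mossy fibre synapses, had 388.6, 422.2 and 410.4 normalized read equivalents in the mutant libraries, against 418.8, 423.0 and 409.2 in the wild type libraries. The groups overlapped almost entirely. Its log2 change was -0.04 ± 0.08 (SE; limma adjusted p = 0.846), with a 95% interval of -0.22 to 0.15.

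Syt17, an atypical member without a transmembrane segment, had 1077.2, 658.3 and 735.3 normalized read equivalents in the mutant libraries, against 655.8, 792.6 and 716.7 in the wild type libraries. Mutant library 1 was 1.36 times the next highest library, and the other mutant libraries lay within the wild type range. The log2 change of 0.16 ± 0.16 (SE; limma adjusted p = 0.605) was -0.049 without mutant library 1.

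**Figure D3:**
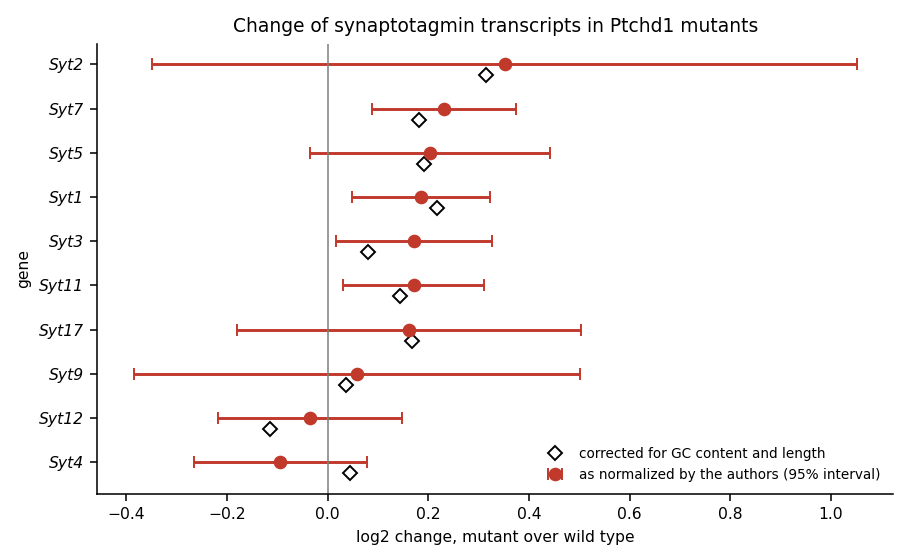
Log2 change, mutant over wild type (horizontal axis), of the 10 synaptotagmins with the 95% interval from limma (red) and the value after correction for GC content and length (open diamonds). The intervals of Syt1, Syt3, Syt7 and Syt11 lie above 0, and the widest is that of Syt2.

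Deviations from the mean of the 6 libraries show which members move with a single library. Syt5, Syt9 and Syt17 were each highest in mutant library 1, at 0.39, 0.46 and 0.50 on the log2 scale. The same library stood at 0.34 for neocortex markers, at -0.28 for dentate granule neuron markers and at -0.32 for oligodendrocyte markers, as the mean log2 deviation of each list. Neocortex markers summed to 3613 to 4266 in mutant libraries and 3351 to 3508 in wild type libraries, with 3 of 6 highest in mutant library 1, and oligodendrocyte markers to 62763 to 79027 in mutant libraries and 75363 to 87032 in wild type libraries. Blood markers summed to 2691 to 5902 in mutant libraries and 3756 to 3933 in wild type libraries, with 4 of 4 highest in mutant library 1. Like Syt1, Syt3, Syt7 and Syt11, the summed markers of pyramidal neurons, GABAergic interneurons and neocortex had all mutant libraries above all wild type libraries. For neocortex this held for the sum only. By mean log2 deviation the groups overlapped, with mutant library 2 at -0.081, wild type library 1 at -0.067 and wild type library 3 at -0.019. GABAergic interneuron markers summed to 15373 to 17625 in mutant libraries and 14031 to 15173 in wild type libraries, with 3 of 8 higher at an unadjusted limma p under 0.05, beside 9.01% of all genes tested. Their mean log2 deviations came close, at 0.003 in mutant library 3 and -0.006 in wild type library 2. Gad1 was lowest in mutant library 1, at 4927, and the groups overlapped for Gad1, Gad2, Pvalb, Vip and Npy. Pyramidal neuron markers summed to 59896 to 63103 in mutant libraries and 52059 to 55577 in wild type libraries, and 6 of 8 were higher at an unadjusted limma p under 0.05, beside 9.01% of all genes tested. In the other direction, microglia markers summed to 6105 to 6184 in mutant libraries and 6382 to 6620 in wild type libraries, without overlap. Of the oligodendrocyte markers, 4 of 10 were lower at an unadjusted limma p under 0.05, beside 9.7% of all genes tested. The part of these tissue differences in the synaptotagmin values was not tested.

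**Figure D4:**
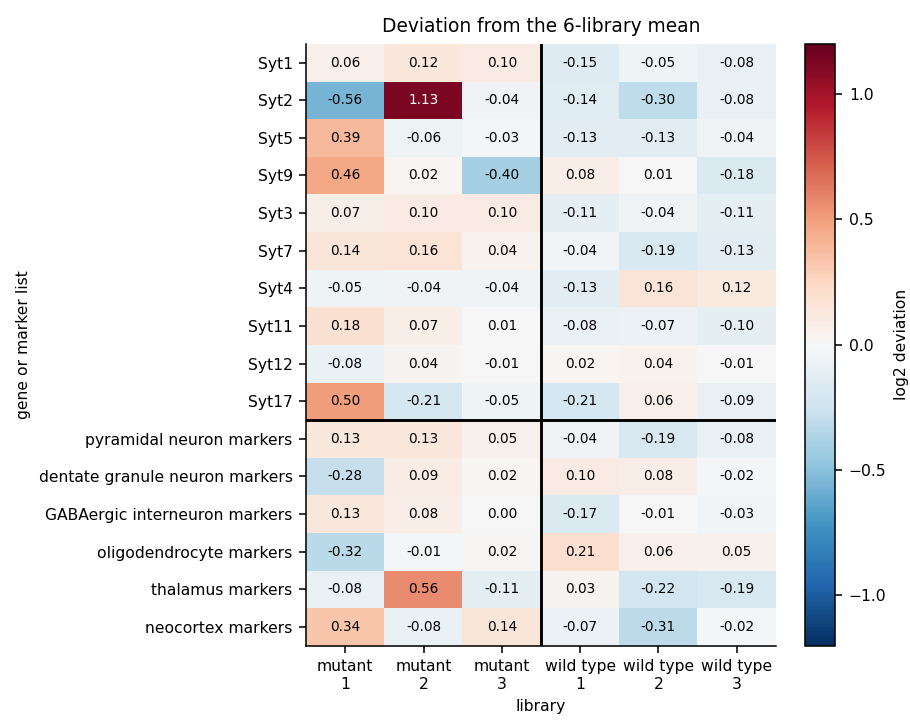
Log2 deviation from the mean of the 6 libraries for each synaptotagmin (upper rows) and the mean deviation of 6 marker lists (lower rows), with mutant libraries 1 to 3 left of wild type libraries 1 to 3. Mutant library 2 stands out for Syt2 at 1.13 and thalamus markers at 0.56, and mutant library 1 for Syt5, Syt9 and Syt17.

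Per kilobase of transcript, mean levels over the 6 libraries ran in the order Syt1, Syt11, Syt4, Syt5, Syt3, Syt17, Syt12, Syt2 and Syt9, leaving Syt7 aside. Syt1 stood at 5474 ± 122 normalized read equivalents per kilobase in mutants and 4814 ± 174 in wild type (SD, n = 3 each), about 1.97 times Syt11 over all libraries. Syt11 stood at 2763 ± 169 per kilobase in mutants and 2451 ± 27.9 in wild type, and Syt9, at the other end, at 29.3 ± 8.7 in mutants and 27.4 ± 2.5 in wild type (SD, n = 3 each). Within this order Syt3 and Syt17 overlapped, as did Syt12 and Syt2, and the other neighbours had separate ranges. For Syt2 the matched model has 3386 bases and the longest of the gene 6879, so its level and overlaps rest on the model used. The place of Syt7 also depends on the transcript length used. It had 2451 per kilobase in mutants and 2089 in wild type with the 1704-base model that matched its identifier, and 630 in mutants and 537 in wild type with the longest model of the gene.

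The genes whose log2 deviations over the 6 libraries lay nearest to those of Syt1 were Acvr2b, Zfp280b, Gnb1, Syt3 and Tceal6, with a root mean square difference of 0.018 to 0.027. Syt3 is thus among the 5 nearest of all genes tested. The genes nearest to Syt7 were Wdr60, Klhl34, Myo18a, Slc4a8 and Ppp1r12b, at 0.019 to 0.026. With 6 libraries and 15717 genes, close matches of this kind are a description only.

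The other synaptotagmins in the table were 7 genes, of which 6 were tested. Of these 5 had a positive log2 change, the median was 0.09, 1 was higher at an unadjusted p under 0.05 and 0 had separated groups. That gene, Syt10, which in mouse olfactory neurons acts in growth factor secretion, had 451.7, 277.5 and 311.8 normalized read equivalents in the mutant libraries, against 278.7, 234.8 and 268.5 in the wild type libraries (limma unadjusted p = 0.0381, adjusted p = 0.24). Mutant library 1 was well above the rest and mutant library 2 lay just below wild type library 1. Syt6, Syt13 and Syt14 had log2 changes of 0.35, 0.09 and 0.10, with overlapping groups. Syt8 had 0 in all 6 libraries.

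Synaptotagmins act together with other release proteins, and lists of these were counted the same way. The lists were chosen with earlier results of these data known, so their shares beside all genes are descriptions only. Limma's adjusted p was above 0.05 for every gene of these lists that was tested. Over all genes tested, 46.8% had a positive log2 change, and 9.01% were higher and 9.7% lower at an unadjusted p under 0.05. Calcium channel and active zone genes, which bring calcium to the vesicles, had 15 of 15 positive, 9 of 15 higher (60%) and 0 lower at an unadjusted p under 0.05, and a median log2 change of 0.22, or 0.16 after correction for GC content and length. Bsn and Pclo, giant scaffolds of the active zone, had log2 changes of 0.56 ± 0.10 and 0.40 ± 0.07, and Cacna1a, the pore of the P/Q-type channel, one of 0.36 ± 0.08 (SE). After correction for GC content and length these were 0.32 for Bsn, 0.35 for Pclo and 0.17 for Cacna1a. By the authors' deposited p-values, adjusted here, 9 of the 15 were higher, beside 4.57% of all genes tested.

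SNARE genes and their regulators, the fusion machinery on which Syt1 acts, had 18 of 27 positive and a median of 0.05 (0.08 corrected), with 6 higher (22.2%) and 3 lower (11.1%) at an unadjusted p under 0.05. Among those of smallest p, the vesicle SNARE Vamp2 had a log2 change of 0.44 ± 0.08 and the complexin Cplx1 one of 0.30 ± 0.08 (SE), each with separated groups. The authors' deposited p-values, adjusted here, put 5 of the 27 past 0.05 as higher, beside 4.57% of all genes tested.

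Vesicle clustering and recycling genes had 16 of 20 positive and a median of 0.08 (0.029 corrected), with 5 higher (25%) and 1 lower (5%) at an unadjusted p under 0.05. Syn1 and Rab3a, which tether and prime vesicles, had log2 changes of 0.50 ± 0.10 and 0.28 ± 0.08 (SE). Other genes with C2 domains had 16 of 24 positive and a median of 0.08 (0.011 corrected), with 6 higher (25%) and 3 lower (12.5%) at an unadjusted p under 0.05. Rims1, an active zone organiser, and Rph3a, a vesicle C2 protein, had log2 changes of 0.24 ± 0.07 and 0.28 ± 0.09, and Pla2g4a, a calcium-dependent phospholipase, one of -0.51 ± 0.16 (SE).

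**Figure D5:**
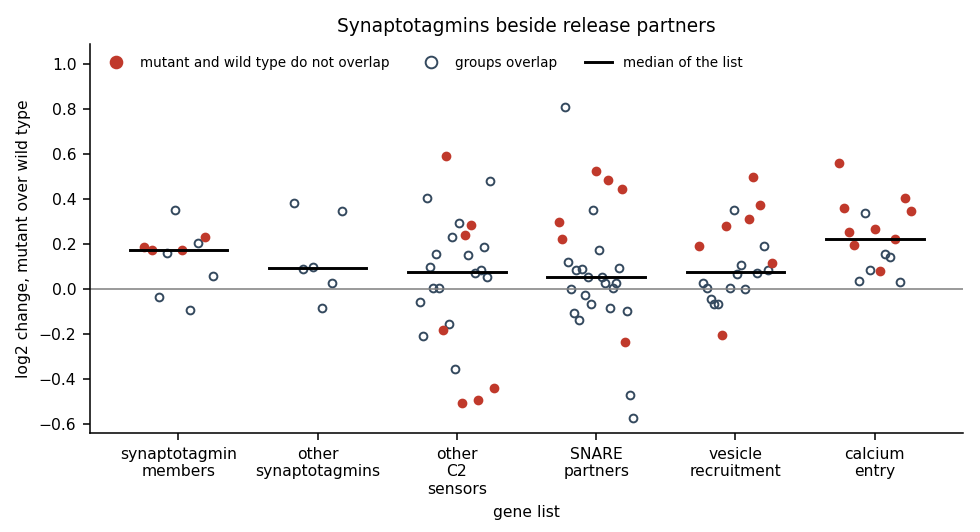
Log2 change, mutant over wild type (vertical axis), of each tested gene in the synaptotagmins and in 5 further lists, with filled points where mutant and wild type libraries do not overlap and a line at the median. Synaptotagmins have a median of 0.17, and the calcium entry list, with every gene above 0, one of 0.22.

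The authors' deposited ontology table of higher genes holds 930 gene names, and Syt1, Syt7 and Syt11 are the 3 of the 10 genes in it. In that deposited table by the authors all 3 are listed under synaptic vesicle exocytosis, a term with 18 genes, a fold of 6.24 and a corrected p of 7.65e-06. The authors' deposited table also lists all 3 under synapse, with 142 genes, a fold of 4.91 and a corrected p of 5.82e-54. In the authors' deposited binding table Syt1 and Syt7, but not Syt11, are listed for the H3K4me2 mark in neurons and for POLR2A in neurons, the second with 712 genes and a fold of 1.6. These entries rest on the same 6 libraries and are not independent of the values above.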

How the data were processed

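Whole-hippocampus RNA, 2000 ng per library, underwent ribosomal RNA depletion and strand-marked library synthesis, 4 libraries to a lane, per the labels' protocols. Per the submitters' processing notes, GSNAP, DESeq2 and mm9 were used; no versions are listed. The deposited table holds 35477 transcript rows of normalized signal with the authors' p-value and score. Within a library all deposited values are whole multiples of 1 step (tolerance 0.01), most often 42, 84 or 126 steps; they were therefore taken as signal coverage of bases by 42-base reads, a reading no source states. The deposited enrichment tables give the authors' fold and corrected p-value, and the number of genes per term was counted from them as deposited. 0 columns of per-sample values were left out.

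Genes were matched by name, keeping the row with the highest mean. Limma 3.58.1 was run on log2(value + 1) for genes with a mean of at least 10 (R 4.3.3, empirical Bayes with trend, two-sided, 15717 genes), after a check on simulated data; the design had allowed for counts, and this scale understates changes of low genes. Coordinates are from GENCODE M21 (GRCm38), with scipy 1.17.1 for permutation tests. The named genes were all 10 synaptotagmins, up to 4 genes of smallest p per list, and the 5 nearest to Syt1 and Syt7. Some genes this rule names are not reported here. Members and lists were chosen with earlier results of these data known. Alternatives covered the pseudocount, filter, transcript choice, normalization, GC and length, library weights, the authors' p and leaving out libraries.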

Additional observations from a re-analysis of the deposited data

How the results depend on the processing

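The count of synaptotagmins with an adjusted limma p under 0.05 was 0 higher and 0 lower, and stayed at 0 when each library was left out in turn and under the pseudocount, filter, transcript, quantile and GC alternatives. It was 1 higher (Syt7) with library quality weights and 3 higher with the authors' deposited p. Over all genes, the count called higher was 0 and became 2 with GC and length correction, 462 with quality weights, 718 with the authors' p, and 0 to 21 when 1 library was left out. The count called lower was 1, which was Ptchd1, and became 0 with no filter, with summed rows and with quantile normalization. It was 343 with quality weights, 508 with the authors' p, and 0 to 36 when 1 library was left out. Without mutant library 1 and wild type library 2 together, a choice made after seeing the data, 18 genes were higher and 92 lower, and no synaptotagmin was among them.

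Directions that turned were those of Syt2 without mutant library 2 (-0.12), Syt4 with GC and length correction (0.044), Syt17 without mutant library 1 (-0.049), and Syt9 without mutant library 1 (-0.16), without wild type library 3 (-0.015) and without mutant library 1 and wild type library 2 (-0.14). Without those 2 libraries Syt12 was at 0.0077. The cause was not tested. Syt1, Syt3, Syt5, Syt7 and Syt11 kept a positive log2 change under all 15 alternatives. The alternative with the authors' p reuses the main log2 change, so its sign could not turn. When 1 library was left out, Syt2 ran from -0.12 to 0.72 and Syt17 from -0.049 to 0.31. Syt1 ran from 0.16 to 0.21 and Syt7 from 0.20 to 0.27, and Syt7 had adjusted p-values of 0.0962 to 0.375. No paired analysis was possible because replicate numbers only follow accession order. Depth limits Syt9 and the Syt7 linker exons, and the spread between libraries limits Syt2.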
